A study of Danio rerio with 28 samples.

Results

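The genes described here are 10 genes of the circadian clock, per1a, per1b, per2, per3, cry1a, ciarta, nr1d1, nr1d2a, nfil3-6 and clocka, out of 27652 gene names counted in a single-cell RNA-Seq series of the adult zebrafish liver. They were chosen by name as components of the clock, with earlier results of these data known. Each UMI stands for 1 captured transcript. UMIs were summed over called cells for each library and each cell type, and levels are given in CPM, the UMIs of the gene per 1000000 UMIs of that sum. All 10 genes were detected.

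The circadian clock is a transcriptional feedback loop. CLOCK and BMAL proteins activate the genes of their own repressors, among them the period and cryptochrome proteins and CIART, while the REV-ERB receptors encoded by nr1d genes repress BMAL transcription. NFIL3-type repressors compete with the activators TEF, HLF and DBP at a shared DNA element. In zebrafish, clocks run in peripheral organs and can be set directly by light, which induces per2 and cry1a, and in the vertebrate liver the clock times metabolic genes.

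The series examined how biliary epithelial cells (BECs) rebuild the liver after hepatocyte ablation. Its 28 Drop-Seq libraries fall into 9 groups. Regenerating livers were sampled at 5 times, 0, 1, 2, 3 and 7 dpa (dpa, days post ablation), in 3 libraries each, beside 3 mock and 3 uninjured mCherry+ libraries, and these 21 libraries held sorted mCherry+ cells. All were from adult fish carrying Tg(Tp1:CreERT2) with the Tg(-3.5ubb:LOXP-EGFP-LOXP-mCherry) reporter and the ablation transgene Tg(fabp10a:CFP-NTR), unablated controls included. The Notch-responsive Tp1 element drives an inducible Cre that turns BECs and all their descendants from GFP to mCherry, and the fabp10a promoter gives hepatocytes the nitroreductase that makes metronidazole toxic. Per the methods of the study, adult fish were fasted before experiments, and metronidazole exposure was in the dark and at ambient temperature. The methods do not describe the exposure of mock fish. Uninjured GFP+ cells of the same genotype gave 1 library, and uninjured livers of the TU wild-type strain, whose live nucleated cells were sorted without a reporter, gave 6. Per the paper, the uninjured liver atlas came from adult males, and fish of both sexes were used elsewhere unless stated. The sources used here do not give the time of day at which livers were taken, so for every comparison the condition and the time of collection cannot be told apart. The uninjured mCherry+ libraries also carry another library number in their deposited names than the mock and dpa libraries.

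The libraries held 25842 called cells, 661 to 1566 each, with medians of 435 to 4038.5 UMIs per cell. Of the cell barcodes, 53 were found in more than 1 library and no pair of libraries shared more than 4. Clusters were named from marker genes, and all 8 BEC markers had UMIs in the BEC-like cells of every mCherry+ group. The sorted mCherry+ libraries also held clusters named lymphocyte-like and macrophage-like from their own marker lists, so they were not made up of BECs and their descendants alone.

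Over all called cells nfil3-6 had 5738 UMIs, ciarta 2940, nr1d2a 2877, per3 2180, per2 1139, per1b 981, cry1a 603, clocka 590, per1a 324 and nr1d1 273. These are low counts for single genes split over libraries and types, and levels are not adjusted for transcript length. The 2 dpa replicate 2 matrix had no row for nr1d1 and counts as 0 there. The filter on low counts left 5 members in the BEC-like fit (per1b, per3, ciarta, nr1d2a and nfil3-6), 7 in the lymphocyte-like fit and 4 in the macrophage-like fit. It keeps genes that reach a minimum level in some libraries. A gene high only in unablated libraries can thus pass it, which favours members that are lower after ablation. Their calls are read against the share of all tested genes that were called. Over all mCherry+ conditions, all 5 differed in BEC-like cells (95.4% of genes called by edgeR), 6 of 7 in lymphocyte-like cells (42.5%) and 4 of 4 in macrophage-like cells (83%).

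In BEC-like cells the tested clock genes fell after ablation as a share of all UMIs and stayed low until 3 dpa. Against mock, 3 of 5 were lower at 0 dpa, where 34.7% of all 3766 genes tested were called and 17.9% were called lower. Without mock replicate 1 the count at 0 dpa was 1. All 5 were lower at 1 dpa (62.3% of genes called, 37.5% lower), at 2 dpa (68.3% called, 40% lower) and at 3 dpa (50.2% called, 31% lower). Of these, per1b, per3, nr1d2a and ciarta had their highest mean levels in unablated libraries, so the filter and the direction of change are not independent. This holds most for per1b, at 70.0, 48.8 and 53.5 CPM in mock. Outside mock only 0 dpa replicate 1 (56.8 CPM) reached that range, and uninjured mCherry+ libraries (42.0, 23.9 and 35.6) did not. per1b thus passed the filter through mock, and its calls against mock are not independent evidence of a fall. With no filter 8 of 10 members were lower at 1 dpa. In that fit 13.4% of 24505 genes were called in either direction, a set that includes the genes too low to pass the filter. The median log2 change of the 5 was -1.31, -3.19, -2.86 and -3.05 at 0, 1, 2 and 3 dpa, while that of all genes was -0.08, -0.30, -0.34 and -0.25. Sums per library were compared with the quasi-likelihood test of edgeR, with Benjamini-Hochberg adjustment over all genes. The labels do not say whether replicates came from separate fish, so its p-values measure the spread between these libraries, which may be technical. With the default TMM factors of edgeR the median of all genes at 1 dpa was 0.38 and 63% of calls were higher, and with library size scaling these were 0.08 and 53.6%, in place of -0.30 and 39.8%. All 5 members were called lower at 1 dpa under each of the 3 scalings, and relative to the median of all genes nfil3-6 stood at -3.36 in the fit reported.

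**Figure D1:**
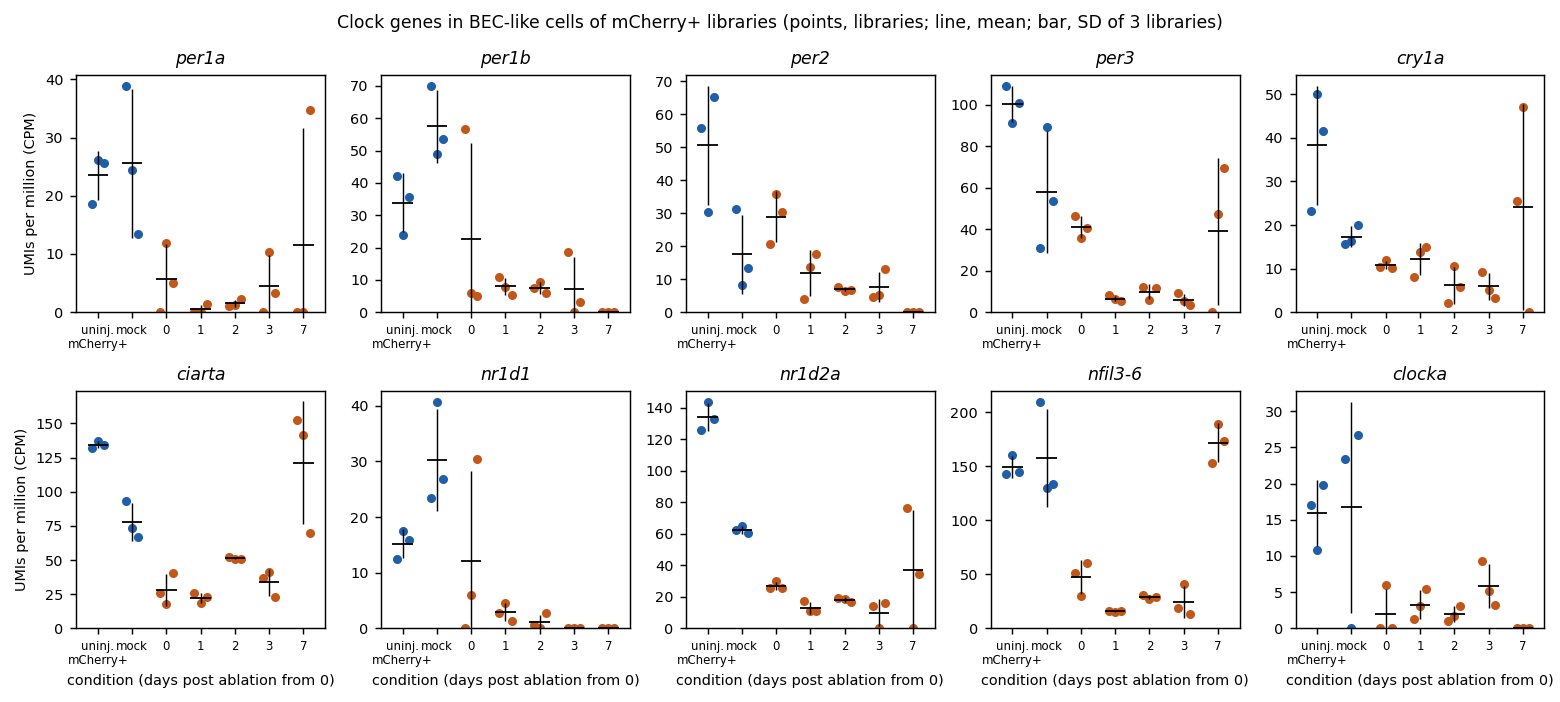
Level of each of the 10 clock genes (CPM, y axis) in BEC-like cells of each mCherry+ library by condition (x axis, uninjured mCherry+, mock, then days post ablation). Points are libraries, blue for uninjured and mock and orange for dpa, lines are means and bars are SD of 3 libraries. The levels of nfil3-6 at 1 dpa lie between 15.3 and 16.3 CPM, below all mock libraries, which lie between 130 and 210 CPM.

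The period genes encode repressors that pair with cryptochromes. Neither per3 nor per1b passed the threshold at 0 dpa, and both were lower than mock at 1, 2 and 3 dpa. The per3 level was 109, 91.4 and 101 CPM in the uninjured mCherry+ libraries, 31.1, 89.5 and 53.5 in mock, 46.5, 35.8 and 40.6 at 0 dpa, 8.11, 6.12 and 5.44 at 1 dpa, 12.3, 5.86 and 11.6 at 2 dpa, 9.24, 5.19 and 3.24 at 3 dpa, and 0, 47.2 and 69.5 at 7 dpa. Thus the 0 dpa and mock libraries overlapped, and those of 1, 2 and 3 dpa all lay below mock. The log2 change against mock was -0.49 (SE 0.48, adjusted p = 0.454, edgeR quasi-likelihood) at 0 dpa and -3.47 (SE 0.54, adjusted p = 5.01e-08) at 1 dpa. Between 0 and 1 dpa, a comparison added after seeing the data, per3 fell by 2.97 on the log2 scale (adjusted p = 2.55e-06, edgeR), as 1 of 4 members called lower there (45% of genes called, 29.2% lower).

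The per1b level was 42.0, 23.9 and 35.6 CPM in uninjured mCherry+ libraries, 70.0, 48.8 and 53.5 in mock, 56.8, 5.97 and 5.07 at 0 dpa, 10.8, 7.65 and 5.44 at 1 dpa, 7.48, 9.37 and 5.79 at 2 dpa, 18.5, 0 and 3.24 at 3 dpa, and 0 in all 3 libraries at 7 dpa. Replicate 1 of 0 dpa lay within the mock range and the other 0 dpa libraries lay far below it. The log2 change against mock was -1.31 (SE 0.62, adjusted p = 0.0927, edgeR) at 0 dpa and -3.19 (SE 0.60, adjusted p = 3.99e-06) at 1 dpa. The decrease between 0 and 1 dpa, -1.88, rested on that replicate, and without it the log2 change was 0.16. At 7 dpa the 0 UMIs of per1b allow a level of up to 33.6 CPM over the group (3 counts). That floor lay 1.71-fold below the pooled mock level of 57.4 CPM (23 UMIs), whose own counting error is left out.

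ciarta, the zebrafish gene of the CLOCK-BMAL repressor CIART, was lower than mock from 0 to 3 dpa. Its level was 93.4, 73.2 and 66.9 CPM in mock, 25.8, 17.9 and 40.6 at 0 dpa, 25.7, 18.4 and 23.1 at 1 dpa, 52.4, 50.9 and 50.8 at 2 dpa, 37.0, 41.5 and 22.7 at 3 dpa and 153, 142 and 69.5 at 7 dpa. All 12 libraries of 0 to 3 dpa were below the lowest mock library, and those of 7 dpa were not. The log2 change was -1.44 (SE 0.45, adjusted p = 0.00805, edgeR) at 0 dpa, -2.15 (SE 0.38, adjusted p = 9.27e-07) at 1 dpa and -1.01 (adjusted p = 0.00375) at 2 dpa. The 2 dpa call was lost with default TMM factors, at -0.21, and with library size scaling, at -0.59, and the 3 dpa call (-1.51) was lost with default TMM factors, at -0.92. From 1 to 2 dpa ciarta rose by 1.14 (adjusted p = 3.43e-05, edgeR, added after seeing the data), with no overlap of the libraries (43.3% of genes called, 21% higher). The count of members called in that comparison, 2, was 1 without 1 dpa replicate 2 or without 1 dpa replicate 3.

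nr1d2a encodes a REV-ERB nuclear receptor, a repressor of BMAL transcription. It stood at 62.2, 65.1 and 60.2 CPM in mock, 25.8, 29.9 and 25.3 at 0 dpa, 17.6, 10.7 and 10.9 at 1 dpa, 19.2, 18.7 and 16.5 at 2 dpa, 13.9, 0 and 16.2 at 3 dpa and 76.4, 0 and 34.8 at 7 dpa. The mock libraries were close together and every library of 0 to 3 dpa lay below them. The log2 change was -1.22 (SE 0.49, adjusted p = 0.0432, edgeR) at 0 dpa, a call that most alternative settings did not keep, and -2.61 (SE 0.45, adjusted p = 6.86e-07) at 1 dpa.

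nfil3-6, a member of the NFIL3 family of bZIP repressors, had the smallest adjusted p of the 5 at 1 dpa. Its level was 210, 130 and 134 CPM in mock, 51.6, 29.9 and 60.8 at 0 dpa, 16.2, 15.3 and 16.3 at 1 dpa, 30.5, 26.9 and 28.9 at 2 dpa, 18.5, 41.5 and 12.95 at 3 dpa and 153, 189 and 174 at 7 dpa. The 1 dpa libraries differed from each other by little and lay far below mock, and the 7 dpa libraries were within the mock range. The log2 change was -1.71 (SE 0.34, adjusted p = 3.73e-05, edgeR) at 0 dpa and -3.67 (SE 0.33, adjusted p = 9.92e-17) at 1 dpa. From 1 to 2 dpa nfil3-6 rose by 0.80 (adjusted p = 0.0170, edgeR, added after seeing the data). Between 2 and 3 dpa no member was called by edgeR, where 31.7% of genes were, 0 had an unadjusted p under 0.05, and DESeq2 called 0.

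At 7 dpa per1b was the 1 member called lower against mock (17.6% of genes called, 13.6% lower), and the log2 changes of ciarta (0.34), nfil3-6 (-0.23), nr1d2a (-0.80) and per3 (-1.09) were not called. The per1b call was lost without mock replicate 1 and without any of the 7 dpa libraries. It also concerns a gene that passed the filter through the mock libraries themselves. The 7 dpa sums are shallow, with 59 BEC-like cells over 3 libraries, and differences of the size of these changes were not detectable at this depth.

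The other members failed the filter on low counts in BEC-like cells, and their levels were as follows. per1a had 38.9, 24.4 and 13.4 CPM in mock, 0, 11.9 and 5.07 at 0 dpa and 0, 0 and 1.36 at 1 dpa. The circadian receptor gene nr1d1 had 23.3, 40.7 and 26.8 CPM in mock, 0, 5.97 and 30.4 at 0 dpa and 2.70, 4.59 and 1.36 at 1 dpa. Both were below mock in every 1 dpa library. nr1d1 had no UMIs at 3 dpa, against 12 in mock. A floor of 3 counts over the 3 dpa group lay 7.16-fold below the pooled mock level, whose own counting error is left out. per2, a light-induced period gene, did not share this pattern at 0 dpa, where its libraries had 20.6, 35.8 and 30.4 CPM, against 31.1, 8.13 and 13.4 in mock. At 1 dpa per2 had 4.06, 13.8 and 17.7 CPM. The cryptochrome gene cry1a had 15.6, 16.3 and 20.1 CPM in mock, 10.3, 11.9 and 10.1 at 0 dpa and 8.11, 13.8 and 14.9 at 1 dpa, with mock above both days. clocka, the only activator among the members, had 0, 5.97 and 0 CPM at 0 dpa, against 23.3, 0 and 26.8 in mock. A fit of all genes with no filter called 13.4% of 24505 genes at 1 dpa in either direction. In it 8 of the 10 members were lower than mock at 1 dpa, with per2 (-0.94) and cry1a (-0.89) not called. In the same fit 2 of 10 were lower at 0 dpa (4.48% of genes called), 8 at 2 dpa (17.2%) and 7 at 3 dpa (9.24%).

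These decreases are decreases in the share of a cell's transcripts. BEC-like cells were shallow in mock, with library medians of 516 to 580 UMIs per cell, and deeper later, 672.5 to 729.5 at 0 dpa, 1779.5 to 2013.5 at 1 dpa, 3792 to 4707 at 2 dpa and 2662.5 to 2763 at 3 dpa. Per 100 BEC-like cells the UMIs of ciarta were 6.24 in mock, 2.59 at 0 dpa and 5.45 at 1 dpa, then 25.9 at 2 dpa, then 11.6 at 3 dpa and then 18.6 at 7 dpa. Those of nfil3-6 were 12.7 in mock, 4.38 at 0 dpa and 3.86 at 1 dpa, then 14.6 at 2 dpa, then 8.04 at 3 dpa and then 25.4 at 7 dpa. Those of per3 were 4.63 in mock, 3.73 at 0 dpa and 1.59 at 1 dpa, then 5.12 at 2 dpa and then 2.01 at 3 dpa. At 0 and at 1 dpa all 5 tested members were thus below mock on both scales, with nr1d2a at 3.18 UMIs per 100 cells and per1b at 1.93 at 1 dpa, against 5.03 and 4.63 in mock. At 2 dpa ciarta, nfil3-6, per3 and nr1d2a (9.11) were above mock per cell and below it in CPM, while per1b (3.73) was below mock on both scales. At 3 dpa per3, nfil3-6, nr1d2a (4.02) and per1b (2.51) were below mock on both scales and ciarta was above mock per cell. The values per cell pool 3 libraries and were not tested, and a cell's RNA content and the share of it that was captured cannot be told apart.

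**Figure D2:**
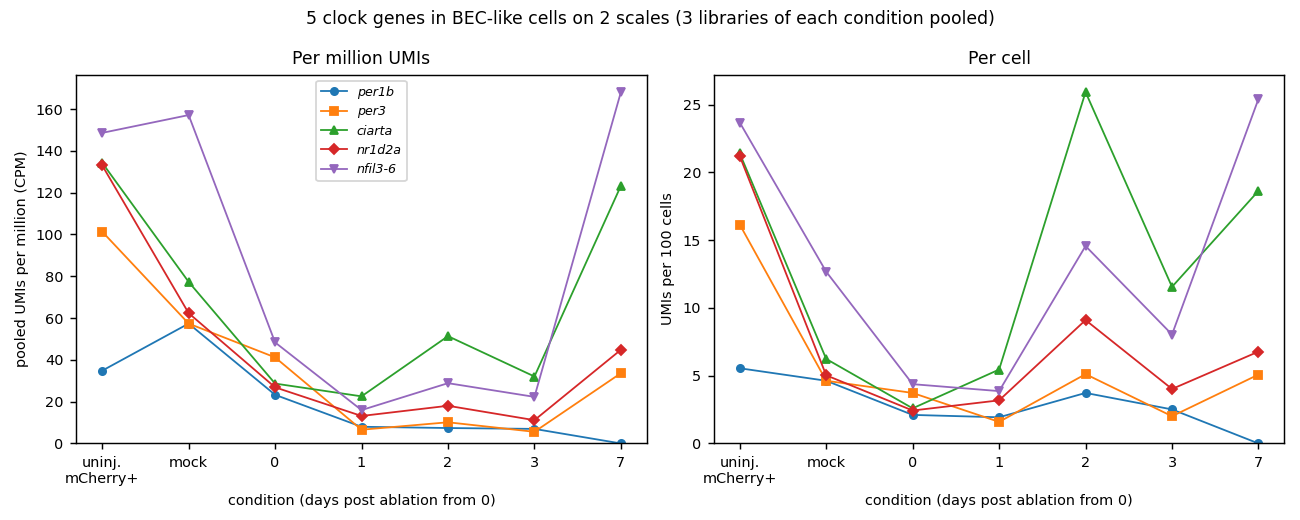
The 5 clock genes tested in BEC-like cells on 2 scales, pooled CPM (left y axis) and UMIs per 100 cells (right y axis), by condition (x axis). Each point pools 3 libraries, and ciarta at 2 dpa reaches 25.9 UMIs per 100 cells, against 6.24 in mock, while its CPM is below mock.

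Other measures also changed over these days, though not all of them at 0 dpa. The summed level of the 8 BEC markers in BEC-like cells was 13702 to 14892 CPM in mock and 14016 to 14639 at 0 dpa, within the mock range. It was lower later, 10597 to 10972 CPM at 1 dpa and 9613.8 to 9910.4 at 2 dpa. The summed list of 7 lymphocyte markers in BEC-like cells was 70.0 to 97.6 CPM in mock, 23.9 to 31.0 at 0 dpa and 2.72 to 6.76 at 1 dpa, with 4, 5 and 3 of the 7 detected and nkl.4 at 0 in all 3 conditions. The list of 7 hepatocyte markers reached 23072 to 28973 CPM at 3 dpa, against 1594 to 2368 in mock. The part of these other transcripts in the clock values was not tested. Barcodes outside the called cells may hold free RNA or shallow cells. Their per3 level was 110, 64.2 and 89.4 CPM in mock and 52.1, 69.8 and 73.1 at 0 dpa, which overlap. At 1 dpa it was 24.0, 32.8 and 39.95 CPM, below all mock libraries. For nfil3-6 the pattern differed, with 102, 104 and 84.3 CPM outside cells in mock, 28.9, 22.2 and 35.1 at 0 dpa and 83.2, 95.3 and 79.9 at 1 dpa. At 1 dpa nfil3-6 was thus near the mock range outside cells and far below it in BEC-like cells. Barcodes outside cells were not assigned to a type, and the make-up of called cells changed. Macrophage-like cells were 11.97% of called cells in mock, 5.19% at 0 dpa and 44% at 1 dpa. Their pooled nfil3-6 level was 409 CPM in mock, 302 at 0 dpa and 153 at 1 dpa. In BEC-like cells the pooled level at 1 dpa was 15.97 CPM. The part of this make-up in the values outside cells was not tested.

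Related clock genes outside the 10 members were read from lists. Of 13 other repressors, 3 could be tested in BEC-like cells, and all 3 were lower than mock at 1 dpa, bhlhe40 (log2 change -2.90), cry2 (-2.29) and cry3a (-1.83). Of 11 PAR bZIP and NFIL3-type genes 2 could be tested, and both were lower at 1 dpa, tefa (-2.34) and hlfa (-2.13), which encode activators at the element that NFIL3 proteins bind. Of 8 light-induced genes 4 could be tested and 2 were lower at 1 dpa, ddb2 (-2.18) and neil1 (-1.60). No listed activator could be tested in BEC-like cells. The decrease was not particular to clock genes, as all 13 immediate early and stress genes were lower at 1 dpa (median -1.59), and so were 2 of 3 tested glucocorticoid-induced genes, fkbp5 (-2.84) and pck1 (-3.46). Of all genes tested there, 37.5% were called lower.

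The uninjured mCherry+ libraries gave another unablated condition. In BEC-like cells 2 of 5 members were lower in mock than in uninjured mCherry+ libraries (26.3% of genes called, 12.7% lower), and 1 of 5 without mock replicate 3. nr1d2a had 62.2, 65.1 and 60.2 CPM in mock, against 126, 144 and 133 in uninjured mCherry+ libraries (log2 change -1.16, adjusted p = 0.00419, edgeR). ciarta had 93.4, 73.2 and 66.9 CPM in mock, against 132, 137 and 135 in uninjured mCherry+ libraries (-0.86, adjusted p = 0.0172, edgeR). nfil3-6 was at 0.02 (adjusted p = 0.972, edgeR) and per1b at 0.67 (adjusted p = 0.333), so the 2 unablated conditions differed in some members and not detectably in others.

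In lymphocyte-like cells per3 was lower in mock, with 33.8, 48.6 and 40.9 CPM, against 146, 163 and 118 in uninjured mCherry+ libraries (log2 change -1.64, SE 0.36, adjusted p = 8.29e-05, edgeR). It was the 1 member of 7 called there (17.3% of genes called, 8.58% lower), with ciarta at -0.83 and per2 at -0.97. In macrophage-like cells 0 of 4 members were called by edgeR (19.5% of genes called), and 1 had an unadjusted p under 0.05, per3, with 60.7, 36.7 and 23.0 CPM in mock, against 127, 97.7 and 82.5 in uninjured mCherry+ libraries (-1.35, adjusted p = 0.0507, edgeR). DESeq2 also called 0. The per3 log2 change was thus below 0 in all 3 types (-0.87 in BEC-like cells, adjusted p = 0.0790, edgeR), and passed the threshold in lymphocyte-like cells. The library number in the deposited names differs between these 2 conditions, and its part cannot be told apart from that of the mock treatment. Immediate early and stress genes were higher in mock in 9 of 13 cases in BEC-like cells (2 lower), 11 of 13 in lymphocyte-like cells (0 lower) and 6 of 13 in macrophage-like cells (1 lower). Of all genes, 512 of 3766, 342 of 3938 and 222 of 2847 were called higher in mock in these 3 types.

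In lymphocyte-like cells no clock gene passed the threshold at 0 dpa. Of 7 members 0 were called against mock by edgeR (8.25% of 3938 genes called), 1 had an unadjusted p under 0.05, and DESeq2 called 0. nfil3-6 had 107, 120 and 115 CPM at 0 dpa, against 124, 170 and 107 in mock (log2 change -0.07, SE 0.32, adjusted p = 0.935, edgeR). per3 had 79.0, 91.2 and 54.6 CPM at 0 dpa, against 33.8, 48.6 and 40.9 in mock, with no overlap but not past the threshold (1.01, SE 0.43, adjusted p = 0.133, edgeR). The difference between BEC-like and lymphocyte-like cells was tested as an interaction, in a fit that also held macrophage-like sums, and 1 of 6 members was called. That fit treated sums of different types from the same library as independent, so its p-values leave out this pairing. For nfil3-6 the change at 0 dpa was lower in BEC-like than in lymphocyte-like cells by 1.72 (log2 difference -1.72, SE 0.46, adjusted p = 0.0111, edgeR, 4.26% of 4510 genes called), and in BEC-like cells all 3 of the 0 dpa libraries lay below the lowest mock library. The log2 differences of ciarta (-1.67, adjusted p = 0.113, edgeR) and per3 (-1.59, adjusted p = 0.154, edgeR) were not called. The nfil3-6 call was lost with default TMM factors (-1.39), without mock replicate 1 and without 0 dpa replicate 2. Between BEC-like and macrophage-like cells no member was called in the interaction (3.3% of genes called), where nfil3-6 stood at -1.23 (adjusted p = 0.107, edgeR).

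**Figure D3:**
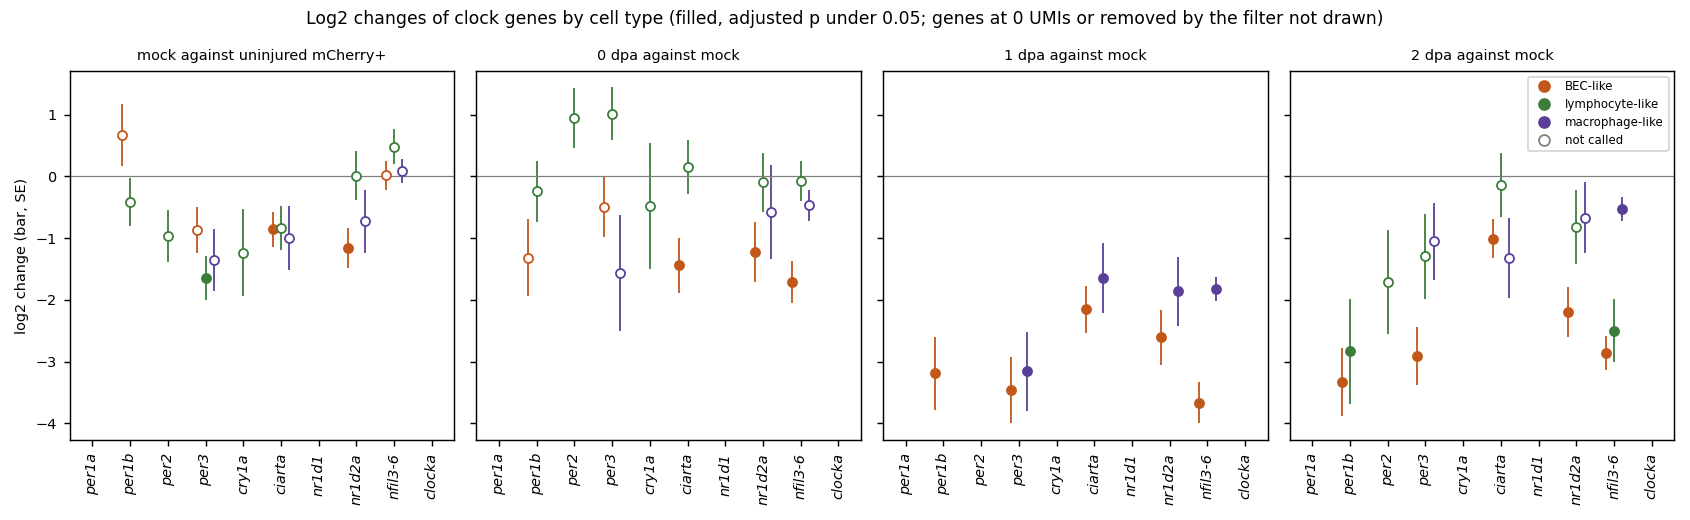
Log2 changes (y axis, bars SE) of the clock genes tested (x axis) in BEC-like (orange), lymphocyte-like (green) and macrophage-like cells (purple) in 4 comparisons, from edgeR. Filled points have an adjusted p under 0.05. At 0 dpa nfil3-6 stands at -1.71 in BEC-like and at -0.07 in lymphocyte-like cells.

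The 1 dpa sums of lymphocyte-like cells, of 25, 32 and 28 cells, entered the fit but were not tested against mock. Pooled over libraries, per3 (52.7 CPM, 4 UMIs) and nr1d2a (65.8 CPM, 5 UMIs) were above mock there (40.9 and 52.0 CPM). The pooled levels of per1b (1 UMI), per2 (1), cry1a (0), ciarta (2) and nfil3-6 (5) were below mock. With so few UMIs neither direction is read as a difference from mock. At 2 dpa, 2 of 7 members were lower than mock in lymphocyte-like cells (26.2% of genes called, 16.3% lower), and 1 of 7 without 2 dpa replicate 3. nfil3-6 had 39.4, 29.0 and 24.8 CPM at 2 dpa, against 124, 170 and 107 in mock (log2 change -2.50, adjusted p = 1.63e-05, edgeR). per1b had 2 UMIs in all at 2 dpa, against 27 in mock (-2.84, adjusted p = 0.00616, edgeR). All 7 log2 changes were below 0, but ciarta was at -0.14 and above 0 with library size scaling (0.29). The 2 dpa sums of lymphocyte-like cells held 200 cells, and a fall of per3 (-1.30, adjusted p = 0.156, edgeR) was not detectable at this depth.

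In macrophage-like cells all 4 members tested were lower than mock at 1 dpa (54.6% of 2847 genes called, 27.2% lower). nfil3-6 had 134, 160 and 164 CPM at 1 dpa, against 394, 413 and 421 in mock (log2 change -1.83, SE 0.19, adjusted p = 1.31e-11, edgeR), and per3 had 5.03, 6.76 and 5.33 CPM, against 60.7, 36.7 and 23.0 in mock (-3.15, SE 0.64, adjusted p = 4.19e-05, edgeR). The libraries of the 2 conditions did not overlap for either gene. nr1d2a had 17.2, 16.1 and 16.0 CPM at 1 dpa, against 15.2, 55.1 and 69.0 in mock (-1.86, adjusted p = 0.00407, edgeR), and ciarta 13.7, 14.4 and 21.99 CPM, against 15.2, 36.7 and 69.0 in mock (-1.65, adjusted p = 0.0127, edgeR). For both, mock replicate 1 was below the highest 1 dpa library, and without mock replicate 3 the count of members called was 2. nr1d2a and ciarta were not called with default TMM factors, a scaling that put the median of all genes at 1.1 in place of 0.06.

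At 0 dpa macrophage-like cells had 0 UMIs of ciarta, against 15 in mock. A floor of 3 counts over the 0 dpa group lay 2.98-fold below the pooled mock level, whose own counting error is left out. ciarta was the 1 member of 4 called (15.2% of genes called, 7.06% lower), and 0 were called without mock replicate 3, 0 dpa replicate 2 or 0 dpa replicate 3. per1b, not tested, also had 0 UMIs, against 15 in mock. nfil3-6 had 228, 377 and 273 CPM at 0 dpa, against 394, 413 and 421 in mock, without overlap but not called (-0.47, adjusted p = 0.207, edgeR).

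Several members of macrophage-like cells were higher again at 2 dpa. In comparisons added after seeing the data, nfil3-6 was lower at 1 dpa than at 0 dpa (log2 change -1.36, adjusted p = 1.58e-05, edgeR, 30.1% of genes called) and higher at 2 dpa than at 1 dpa (1.30, adjusted p = 2.67e-08, edgeR, 27% of genes called and 11.1% called higher), with 471, 273 and 413 CPM at 2 dpa. per3 rose by 2.10 from 1 to 2 dpa (adjusted p = 0.00419, edgeR) and nr1d2a by 1.19 (adjusted p = 0.0490, edgeR), and without 2 dpa replicate 2 the count of members called was 1 in place of 3. Against mock, 1 of 4 members was lower at 2 dpa (48.8% of genes called, 25.8% lower), nfil3-6 at -0.53 (adjusted p = 0.0239, edgeR), whose libraries overlapped with mock and whose change was 0.19 with default TMM factors. BEC-like cells at 2 dpa still had nfil3-6 and per3 far below mock in CPM, and that difference between types at 2 dpa was not tested. Macrophage-like cells too were deeper at 1 dpa, with medians of 3067 to 3330 UMIs per cell, against 980 to 1034 in mock, and per 100 cells nfil3-6 had 56.1 UMIs at 1 dpa, against 47.2 in mock, while per3 had 2.08, against 4.66 in mock.

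**Figure D4:**
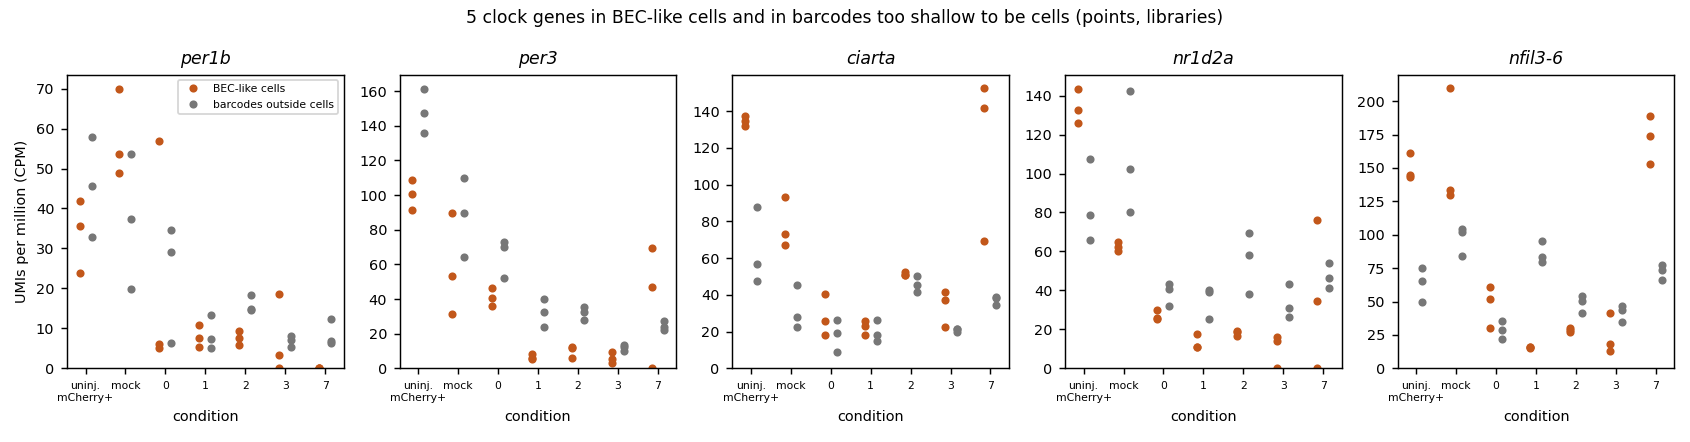
Level (CPM, y axis) by condition (x axis) of 5 clock genes in BEC-like cells (orange) and in barcodes outside called cells (grey), points being mCherry+ libraries. In barcodes outside cells nfil3-6 lies between 79.9 and 95.3 CPM at 1 dpa and between 22.2 and 35.1 CPM at 0 dpa.

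Hepatocyte-like cells of the mCherry+ libraries were frequent only at 3 and 7 dpa, with 2309 cells at 7 dpa and 2075 at 3 dpa. In the fit of all conditions 449 genes and no member passed the filter (84.9% of those genes called between the 2 days, 93.5% over any condition), so the values given come from the fit of these 2 conditions alone. Of 8 members tested, 5 were higher and 2 lower at 7 dpa than at 3 dpa, where 79.1% of 7973 genes were called, 11.2% higher and 67.9% lower, and the median log2 change of all genes was -1.12. per3 had 13.3, 18.6 and 17.1 CPM at 7 dpa, against 4.84, 3.83 and 4.88 at 3 dpa (log2 change 1.85, SE 0.25, adjusted p = 9.87e-09, edgeR). per1b had 7.29, 7.33 and 10.9 CPM at 7 dpa, against 3.79, 2.81 and 2.44 at 3 dpa (1.51, adjusted p = 5.05e-05, edgeR). Non-overlap is not counted over members here, as the share of all genes without overlap is not given. Where it is stated in the other comparisons, non-overlap describes the libraries of the gene named and no more.

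ciarta had 48.0, 43.5 and 47.7 CPM at 7 dpa, against 19.4, 30.7 and 24.6 at 3 dpa (0.94, adjusted p = 1.16e-07, edgeR). nr1d2a had 36.9, 32.3 and 35.9 CPM at 7 dpa, against 19.6, 23.0 and 20.4 at 3 dpa (0.77, adjusted p = 6.41e-06, edgeR), and nfil3-6 had 84.0, 85.1 and 102 CPM at 7 dpa, against 62.3, 60.8 and 71.0 at 3 dpa (0.51, adjusted p = 8.26e-06, edgeR). Relative to the median of all genes these changes were larger, 2.06 for ciarta and 2.97 for per3, and they were higher under all 3 scalings tried, though nr1d2a was not called with cells clustered at resolution 1 (0.09). per2 (-0.98, adjusted p = 0.00469, edgeR) and clocka (-1.03, adjusted p = 0.0193, edgeR) were lower but lay 0.14 and 0.09 above the median of all genes and lost their calls with default TMM factors. cry1a stood at -0.09.

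Among listed genes in these cells, 1 of 5 tested PAR bZIP and NFIL3-type genes was higher and 4 lower, and 2 of 5 repressors were higher and 2 lower. Of these tefb (log2 change 1.06), cipcb (1.37) and bhlhe40 (0.45) were higher at 7 dpa, tefa (-1.36), hlfa (-0.76), nfil3-5 (-2.61), nfil3, cry3a (-0.50) and bhlhe41 (-0.80) lower, and of 4 tested activators 3 were lower, arntl1a (-1.06), arntl2 (-2.998) and rorcb (-1.37). Of all genes 67.9% were lower in this comparison, and the changes of arntl1a, rorcb and tefa lay near the median of all genes, -1.12. The 2 days also differed in depth, with medians of 1793 to 2095 UMIs per cell at 7 dpa, against 4415.5 to 5118.5 at 3 dpa. The hepatocyte marker sum was 38033 to 39384 CPM at 7 dpa, against 77611 to 79359 at 3 dpa, and the BEC marker sum 1361 to 1529 CPM at 7 dpa, against 5866 to 5943 at 3 dpa. Their part in the clock values was not tested.

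**Figure D5:**
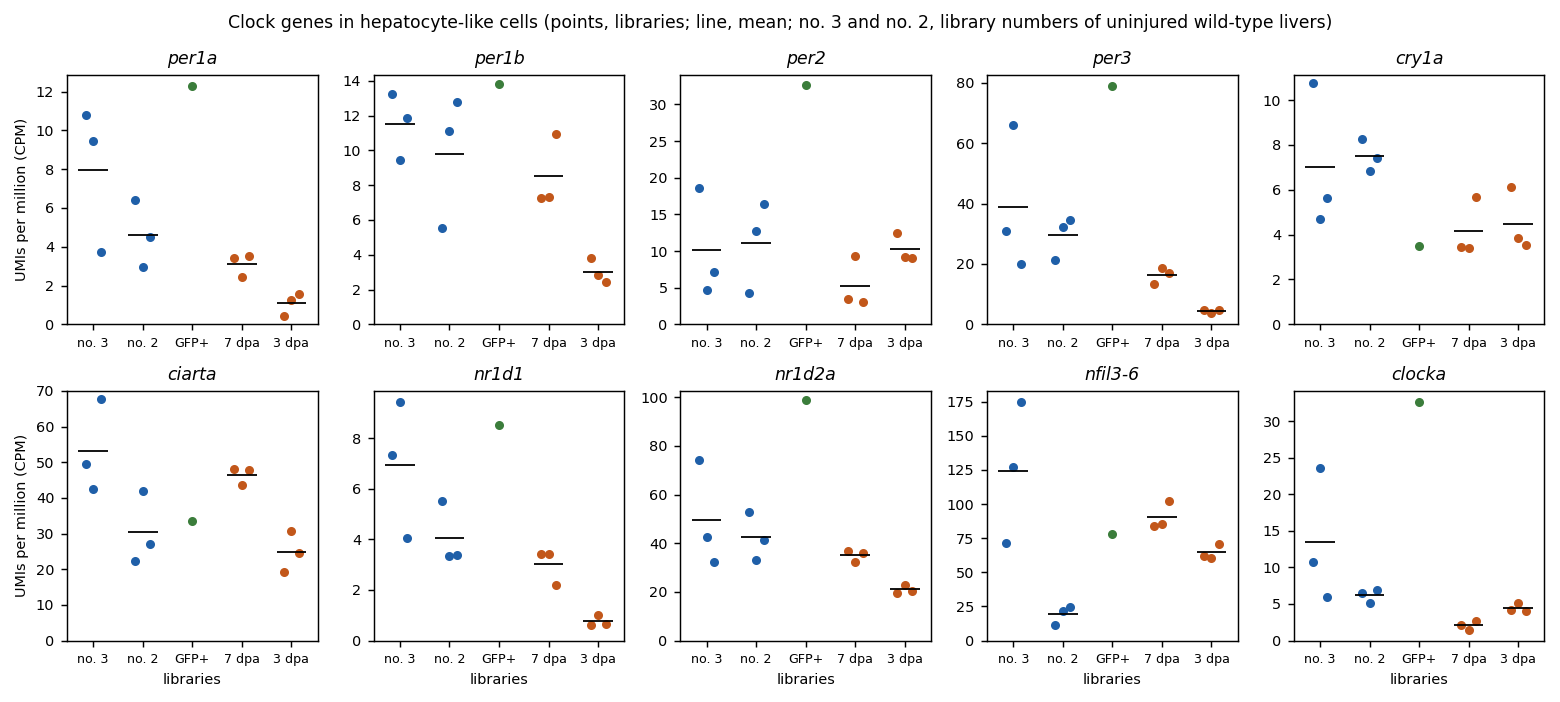
Level of the clock genes (CPM, y axis) in hepatocyte-like cells of each library, grouped on the x axis as uninjured libraries of number 3 and of number 2 (blue), uninjured GFP+ (green), and 7 dpa and 3 dpa mCherry+ libraries (orange). nfil3-6 lies between 71.5 and 175 CPM in the libraries of number 3, against 11.3 to 24.3 CPM in those of number 2.

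The 6 libraries of uninjured wild-type livers carry library numbers 2 (replicates 1 to 3) and 3 (replicates 4 to 6) in their deposited names, which says nothing of how they were made. In hepatocyte-like cells, where all 10 members passed the filter, 1 of 10, nfil3-6, was called between the numbers (5.96% of 7833 genes called, 5.27% higher). It had 71.5, 127 and 175 CPM in the libraries of number 3, against 11.3, 21.7 and 24.3 in those of number 2 (log2 change 2.85, SE 0.46, adjusted p = 0.00386, edgeR), with no overlap. ciarta, with 49.4, 42.5 and 67.6 CPM in number 3, against 22.4, 41.8 and 26.9 in number 2, did not overlap either but was not called (0.94, adjusted p = 0.166, edgeR). The remaining 8 members lay between 0.05 and 0.74, around the median of all genes, 0.42, and 5 of them were below 0 with default TMM factors. Of 13 immediate early and stress genes, 6 were higher in number 3 (median 2.15).

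No member passed the filter in endothelial-like, lymphocyte-like or macrophage-like cells of the uninjured libraries, where 0.394%, 0.244% and 0% of genes were called, so whether other types shared the nfil3-6 difference was not detectable at this depth. In endothelial-like cells nfil3-6 had 24.5, 0 and 0 CPM in the libraries of number 3 (6, 0 and 0 UMIs), against 10.01, 42.9 and 14.6 CPM in those of number 2 (1 UMI each). In macrophage-like cells nfil3-6 had 199, 158 and 0 CPM in number 3 (12, 22 and 0 UMIs), against 149, 81.1 and 38.1 CPM in number 2 (7, 2 and 3 UMIs). The libraries of both numbers overlapped in endothelial-like cells. In macrophage-like cells the overlap rested on replicate 6 of number 3, a sum of 5 cells, below the minimum for a fit. Without that sum nfil3-6 was higher in number 3. In lymphocyte-like cells, the sums of at least 10 cells had 135 and 44.3 CPM in number 3 (5 and 13 UMIs). Those of number 2 had 41.8 and 23.3 CPM (2 and 1 UMIs). These differences were not tested. Endothelial-like cells carried per3 at 98.0, 289 and 110 CPM in number 3, against 150, 42.9 and 58.5 in number 2, which overlap. Whether the members shifted in all cell types at once between the uninjured libraries could not be tested, as types other than hepatocyte-like had too few UMIs.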

How the data were processed

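Drop-Seq UMI counts per gene and barcode were deposited as 1 matrix of 5000 barcodes per library; the authors aligned reads with STAR 2.5.3 to GRCz11, per the labels and methods. Barcodes with a total above the library mean were taken as cells. Cells were clustered (30 components of 2000 genes, Leiden resolution 2) and named "X-like" from marker lists; a ratio in the naming rule was lowered from 2 to 1.5 after the cluster names had been seen. No doublets were removed. Counts were summed per library and type, sums of at least 10 cells were kept, and edgeR 4.0.16 (R 4.3.3) quasi-likelihood tests were run over all genes passing filterByExpr, with Benjamini-Hochberg adjustment at 0.05 and TMM factors from genes of at least 100 CPM in every condition. The text names the 10 members and those genes of the fixed lists that it gives with values. The members and lists were chosen with earlier results of these data known. Alternatives were default TMM factors, library size scaling, DESeq2 1.42.0, no filter, fitting 2 conditions, leaving out each library, a replicate block, cells of at least 300 UMIs, subtraction of background and resolution 1. Comparisons of successive days and alternatives of the hepatocyte-like fit of 2 conditions were added after seeing the data. Scripts were tested on simulated data. All comparisons against mock share the 3 mock libraries. UMI totals were 926798 to 7296066 per library. Floors use 3 counts over the group at 0 and cover the counting error of that group only, not that of the mock level. A gene that the likeness rule named for ciarta is not reported here.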

Additional observations from a re-analysis of the deposited data

Results flagged for a closer look

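In the 6 uninjured wild-type libraries, 6 of 20 sets of 6 values held a library far from the others. Chance gives about 1 in 20 for a single set. The sets are the 10 members in hepatocyte-like cells and the same 10 in all called cells. They share libraries and cells, so the count cannot be read against that rate. In hepatocyte-like cells the values that stood apart were per3 at 66.1 CPM (next 34.6) and clocka at 23.6 CPM (next 10.8). Both were in replicate 5, whose sum held 107 cells and 211949 UMIs. Over all called cells, replicate 5 stood apart for per1b at 42.1 CPM (next 20.4), per3 at 83.1 CPM (next 41.5) and clocka at 18.9 CPM (next 9.83), and replicate 4 for nr1d1 at 11.3 CPM (next 6.31). Replicate 5 differed in make-up, with 13.3% hepatocyte-like cells, against 55.8% to 96.9% in the other libraries, and with 31.1% lymphocyte-like and 16.3% erythrocyte-like cells, so its values over all called cells mix other types. It also had the lowest median depth of the 6, at 752.5 UMIs per cell.

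In the interaction fit, which treated sums from the same library as independent, the 0 dpa change of nfil3-6 differed between BEC-like and lymphocyte-like cells. The log2 difference was -1.72.

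The single GFP+ library entered no comparison. In its hepatocyte-like cells some members stood above the highest uninjured wild-type library, whose level is given in brackets. They were per1a at 12.3 CPM (10.8), per1b at 13.8 (13.2), per2 at 32.6 (18.6), per3 at 79.0 (66.1), nr1d2a at 98.8 (74.4) and clocka at 32.6 (23.6). Not above were ciarta at 33.6 CPM (67.6), nfil3-6 at 78.0 (175), nr1d1 at 8.52 (9.44) and cry1a at 3.51 (10.8). The share of all genes above that range is not given, so these values are not read as a trait of clock genes. The margins of per1a and per1b were small. The GFP+ fish carried the transgenes, the uninjured libraries came from TU fish, and their library numbers differ. The paper gives male fish for the uninjured liver atlas and does not give the sex of the GFP+ fish. Genotype, sort, library number and any difference in sex cannot be told apart.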

How the results depend on the processing

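Of 376 other settings for 23 counts of members called in the main comparisons, 322 stayed within 1.5 times and 54 did not, and of 472 for 32 log2 changes, 419 kept direction and call, 52 lost the call and 1 reversed. For the comparisons added after seeing the data, 78 of 89 settings of 6 counts stayed within 1.5 times, and of 242 for 17 log2 changes, 205 kept direction and call, 34 lost the call and 3 reversed. The cause of a change was not tested unless fewer genes or samples entered. Shares of all genes called are given for the counts with no filter only. Calls over all genes also move with the setting. For 1 against 0 dpa in BEC-like cells, 597 of 3766 genes were called higher and 1098 lower in the fit reported. With default TMM factors these were 1244 and 631. Counts given without a share thus describe how the calls depend on the setting, and are not results about the members. With no filter the counts in BEC-like cells were 8 in place of 5 at 1 dpa (13.4% of genes called) and at 2 dpa (17.2%). They were 10 in place of 5 over any condition (39.5%). For mock against uninjured mCherry+ (3.54%) and for 2 against 1 dpa (9.43%) they were 1 in place of 2, and at 7 dpa (1.51%) 0 in place of 1. In macrophage-like cells they were 7 in place of 4 at 1 dpa (9.65%) and over any condition (19.5%). They were 0 in place of 1 there at 0 dpa (1.31%) and at 2 dpa (6.38%), and 2 in place of 1 for 1 against 0 dpa (3.23%). In hepatocyte-like cells they were 9 between 7 and 3 dpa (32.8%) and 7 over any condition (32.6%), in place of 0. With 2 conditions fitted they were 8 in BEC-like cells at 2 dpa (in place of 5), 3 for 3 dpa (in place of 5), 0 for 7 dpa, 1 in lymphocyte-like cells at 2 dpa and 3 for mock against uninjured mCherry+, 0 in macrophage-like cells at 0 and 2 dpa, 2 for 1 against 0 dpa and 1 for mock against uninjured mCherry+, and 7 in hepatocyte-like cells. With default TMM factors they were 2 in BEC-like cells for 1 against 0 dpa (also 2 with library size scaling, in place of 4), 3 in lymphocyte-like cells for mock against uninjured mCherry+ (also 3 with library size scaling, in place of 1), 2 in macrophage-like cells at 1 dpa, 0 at 2 dpa, and 0 for the condition difference between types. At 2 dpa in macrophage-like cells library size scaling, DESeq2 and background-subtracted counts also gave 0. At 7 dpa in BEC-like cells library size scaling, DESeq2, the replicate block, cells of at least 300 UMIs and background-subtracted counts gave 0. Clustering at resolution 1 gave 0 in macrophage-like cells at 0 dpa, 2 at 2 dpa, 3 for 1 against 0 dpa, 1 for mock against uninjured mCherry+, and 1 in hepatocyte-like cells over any condition. Leaving out 1 library gave 1 to 3 in BEC-like cells at 0 dpa, 4 to 6 for 2 dpa, 0 to 1 for 7 dpa, 1 to 3 for mock against uninjured mCherry+, 5 to 7 over any condition, 3 to 4 for 1 against 0 dpa and 1 to 2 for 2 against 1 dpa; 1 to 2 in lymphocyte-like cells at 2 dpa; in macrophage-like cells 0 to 1 at 0 dpa, 2 to 5 at 1 dpa, 0 to 1 at 2 dpa, 0 to 1 for mock against uninjured mCherry+, 1 to 2 for 1 against 0 dpa and 1 to 2 for 2 against 1 dpa; and 0 to 2 for the difference between types. Changes of sign were nfil3-6 in macrophage-like cells at 2 dpa with default TMM factors (0.19), per1b in BEC-like cells between 1 and 0 dpa without 0 dpa replicate 1 (0.16; without 1 library, -2.39 to 0.16), and clocka (0.01) and per2 (0.11) in hepatocyte-like cells with DESeq2. The replicate block changed no other count by over 1.5 times; same-numbered libraries correlated at a mean of 0.0407 over 57 pairs, 17 of them over 0.1, so the numbers were not taken as pairing. Higher calls made up 81.9% of calls in macrophage-like cells at 1 dpa with default TMM factors, in place of 50.2%, and 60.4% in uninjured hepatocyte-like cells, in place of 88.4%. Depth limited the BEC-like sums at 7 dpa and the lymphocyte-like sums at 2 dpa.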

Other observations

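Over the 21 sums of BEC-like cells, the genes whose levels ordered the libraries most like ciarta (644 UMIs), among 1843 genes averaging at least 50 CPM, included romo1 (Spearman's rho 0.908), histh1l (0.906), anxa4 (0.875) and serf2 (0.860). For nfil3-6 (562 UMIs) they were h2ax1 (0.887), vtg6 (0.886), btg2 (0.879), junba (0.878) and vtg1 (0.877). For nr1d2a (399 UMIs) they were u2surp (0.904), cst3 (0.901), clk4a (0.898), ggact.1 (0.898) and CU138553.1 (0.896). The points share libraries and depth, and these values are a description.

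In hepatocyte-like cells at 7 dpa against 3 dpa, glucocorticoid-induced genes were higher in 4 of 6 cases, klf9 (log2 change 2.399), zbtb16a (2.28), zbtb16b (2.19) and fkbp5 (1.12), and lower in 2, pck1 (-1.38) and tsc22d3 (-0.51). Of all genes, 11.2% were called higher and 67.9% lower.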
